A study of Mus musculus with 7 samples.

Results

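The 6 genes described here, Rnase4, Ang, Ear1, Ear2, Ear6 and Ear10, encode secreted ribonucleases of the RNase A family, and they are 6 of the 27179 genes in the deposited count table. They were chosen by name from that family with the comparison of Suz12 conditional knockout (Suz12 cKO) and wild type alveolar macrophages already known. Their values in that comparison are therefore a description and carry no test. The RNA came from alveolar macrophages, phagocytes that live in the airspaces of the lung, which were sorted by flow cytometry from bone marrow chimeras on the C57BL/6 background. Recipients carrying Ly5.1 were lethally irradiated and given marrow that was 90% test marrow, carrying Ly5.2, and 10% wild type competitor marrow, carrying Ly5.1. In the wild type group (4 libraries) the test marrow was wild type, and in the Suz12 cKO group (3 libraries) it lacked Suz12 conditionally, so both groups shared the irradiation and the wild type competitor cells. The sources used here do not give the Cre line, the deleted exons, the ages of the mice or whether competitor cells were gated out. Suz12 is a core subunit of the polycomb repressive complex PRC2, which marks silent genes by methylating histone H3.

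RNase A family enzymes are small secreted proteins that cut RNA after pyrimidines. Angiogenin, the product of Ang, is known for driving vessel growth and for cutting transfer RNAs under stress, and Rnase4 is transcribed from promoters that it shares with Ang. Ear stands for eosinophil-associated ribonuclease. The Ear genes are a rodent branch of the family that has multiplied into near-identical copies, and transcripts of Ear1 and Ear2 are known from alveolar macrophages as well as from eosinophils.

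The libraries held between 48104653 and 79281431 counts, and values are CPM, counts scaled to a common library total, after TMM scaling. Summed haemoglobin transcripts were above 20 CPM, before TMM scaling, in Suz12 cKO replicates 1 and 2 (192 and 155 CPM) and in wild type replicate 2 (56.6 CPM), against 2.29 to 5.17 CPM in the other 4 libraries. Those 3 libraries are called high in tissue RNA, and values within them and within the other 4 are given beside the members and the further genes that were called. The low set holds 1 Suz12 cKO library (replicate 3) and the high set 1 wild type library (replicate 2), so that library alone stands for its group there. Suz12 itself was at 63.9 ± 8.92 CPM (SD, n = 4) in wild type and 20.3 ± 4.53 CPM (n = 3) in Suz12 cKO libraries, a log2 fold change of -1.65 (SE 0.18, edgeR adjusted p = 0.00134). All 12 alveolar macrophage markers were detected in each library, and their summed level was 54476 to 69806 CPM in wild type and 62984 to 68423 CPM in Suz12 cKO libraries. Most of that sum was Lyz2 (means of 39474 CPM in wild type and 37582 CPM in Suz12 cKO) and Chil3 (17223 and 19467 CPM). It therefore says little of the other markers, whose calls are given below. Across the table, 1486 of 14436 genes tested were called at an adjusted p under 0.05 (10.3%), 906 of them higher (6.28%) and 580 lower (4.02%) in Suz12 cKO, with a median log2 fold change of 0.00 over all genes tested.

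Rnase4 and Ang lie on top of each other on chromosome 14 in GRCm38. Rnase4 spans 51091077 to 51106151 and Ang spans 51091077 to 51102009. Their RefSeq promoter windows, which run from 250 bases before to 50 bases after the annotated start, are the same 300 bases (chr14:51090827-51091126, plus strand). This window is shown because it is common to the members that were lower; the letters CG, the pair that can carry DNA methylation, are in capitals.
Rnase4 and Ang, shared promoter: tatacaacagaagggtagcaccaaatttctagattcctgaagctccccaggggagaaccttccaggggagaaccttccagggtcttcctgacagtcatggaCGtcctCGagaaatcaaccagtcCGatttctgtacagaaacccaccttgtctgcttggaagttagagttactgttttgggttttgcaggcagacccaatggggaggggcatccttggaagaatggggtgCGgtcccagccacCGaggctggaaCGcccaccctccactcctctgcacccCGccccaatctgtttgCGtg
The window holds 8 CG pairs, and 48.6% of the 32817 promoter windows in the RefSeq table (GRCm38.p6) hold at least as many. A second Rnase4 start, with its window at chr14:51095750-51096049, holds 2.

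The Ear genes lie in separate parts of the same chromosome. Ear1 (43818765 to 43819639, minus strand), Ear10 (43922898 to 43923596, minus strand) and Ear2 (44102654 to 44103531, plus strand) are close together, while Ear6 (51853768 to 51854643, plus strand) lies on the far side of Rnase4 and Ang. The Ear2 promoter window (chr14:44102404-44102703) is shown with those of Ear10 (chr14:43923547-43923846) and Ear6 (chr14:51853518-51853817), read on each gene's own strand; capitals mark bases of Ear10 and Ear6 that did not align to the same base of Ear2.
Ear2 promoter: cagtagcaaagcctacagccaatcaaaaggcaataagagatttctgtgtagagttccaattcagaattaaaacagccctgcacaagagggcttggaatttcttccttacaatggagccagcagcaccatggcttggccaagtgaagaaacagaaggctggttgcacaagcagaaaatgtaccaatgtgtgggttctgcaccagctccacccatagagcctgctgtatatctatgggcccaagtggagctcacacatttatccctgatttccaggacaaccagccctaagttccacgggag
Ear10 promoter: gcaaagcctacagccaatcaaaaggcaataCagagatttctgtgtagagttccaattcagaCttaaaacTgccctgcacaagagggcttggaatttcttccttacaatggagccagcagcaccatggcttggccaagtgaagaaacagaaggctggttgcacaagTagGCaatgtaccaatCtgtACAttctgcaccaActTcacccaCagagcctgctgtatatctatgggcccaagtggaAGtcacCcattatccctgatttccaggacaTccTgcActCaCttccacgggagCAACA
Ear6 promoter: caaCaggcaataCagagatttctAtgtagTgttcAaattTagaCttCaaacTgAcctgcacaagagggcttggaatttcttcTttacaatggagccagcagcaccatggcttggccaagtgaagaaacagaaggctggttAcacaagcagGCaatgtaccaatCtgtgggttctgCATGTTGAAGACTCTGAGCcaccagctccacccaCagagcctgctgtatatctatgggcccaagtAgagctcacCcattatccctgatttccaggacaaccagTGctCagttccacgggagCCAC
By this measure Ear1 had 6 such bases, Ear10 26 and Ear6 44. These include bases with no counterpart in the Ear2 window, such as those at the window ends and an inner stretch of Ear6. Of the bases that aligned, 294 of 297 were identical to Ear2 in Ear1, 274 of 294 in Ear10 and 256 of 276 in Ear6. The windows were poor in CG, with 2 pairs in Ear1 and 1 each in Ear2, Ear10 and Ear6, and 94.6% of promoter windows hold 1 or more. The C/EBP letters TTGCNNAA, searched on both strands, were found once each in Ear1, Ear2 and Ear10, as TTGCACAA at -92, -90 and -94 bases from the start. They were not found in the Ear6 window or in the window shared by Rnase4 and Ang, and were found once in the second Rnase4 window. Family genes that are not members held them too. They were in Rnase2b (TTGCACAA at -118), in Rnase2a (TTGCATAA at -217) and in the Rnase6 windows that start at 51128814 and 51128787 (TTCTGCAA). The Rnase6 window that starts at 51123658 lacked them. Of all promoter windows, 10.8% hold these letters. The PU.1 letters GAGGAA, the TATA letters TATAAA, the AP-1 letters TGANTCA and the E-box letters CACGTG were in none of the members' windows, and 28.3%, 13.6%, 7.8% and 7.1% of all windows hold them. No binding or chromatin data were used here, so these matches describe the letters alone.

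How alike the Ear transcripts are decides how well reads of 85 bases can tell them apart. Between coding sequences, identity was 95.7% for Ear1 and Ear2, 97.0% for Ear2 and Ear10, and 95.1% for Ear1 and Ear10, against 87.3% to 88.2% between Ear6 and these 3. Rnase4 and Ang, which share a promoter and not a coding sequence, were 60.1% identical. The 85-base stretch of coding sequence in which Ear1, Ear10 and Ear6, counted together, differ most from Ear2 (coding bases 344 to 428) is shown. Bases unlike Ear2 are in capitals. The stretch in which Ear1 or Ear10 alone differs most was not searched for.
Ear2: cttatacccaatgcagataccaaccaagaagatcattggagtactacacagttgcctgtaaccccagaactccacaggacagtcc
Ear1: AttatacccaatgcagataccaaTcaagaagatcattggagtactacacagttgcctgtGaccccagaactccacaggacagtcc
Ear10: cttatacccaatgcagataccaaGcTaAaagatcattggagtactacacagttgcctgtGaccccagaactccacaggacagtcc
Ear6: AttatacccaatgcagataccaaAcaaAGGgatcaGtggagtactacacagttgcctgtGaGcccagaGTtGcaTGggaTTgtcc
Here Ear1 differs from Ear2 at 3 bases, Ear10 at 4 and Ear6 at 15. In the stretch where the 3 together differ least (coding bases 180 to 264), Ear1 and Ear10 have no base unlike Ear2 and Ear6 has 6. Of all 85-base pieces of the annotated Ear transcripts, 33.2% of those of Ear1, 17.6% of Ear2 and 29.6% of Ear10 were identical to a piece of another gene. Allowing 2 mismatches, 86.0%, 80.8% and 66.8% matched another family gene, among them the pseudogenes Ear-ps2 and Ear-ps9. For Ear6 the shares were 0.0% and 0.3%. The sources used here do not say how reads matching several places were counted. The split of counts among Ear1, Ear2 and Ear10 is therefore uncertain, and their sum is given below. For Rnase4 and Ang the shares of identical pieces were 3.4% and 5.6%, and the genes share 219 exon bases, 13.4% of the exon bases of Rnase4 and 18.2% of those of Ang in GENCODE M21. Reads inside the shared exons (chr14:51091150-51091253 and chr14:51096359-51096473) cannot be placed in either gene by position.

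**Figure D1:**
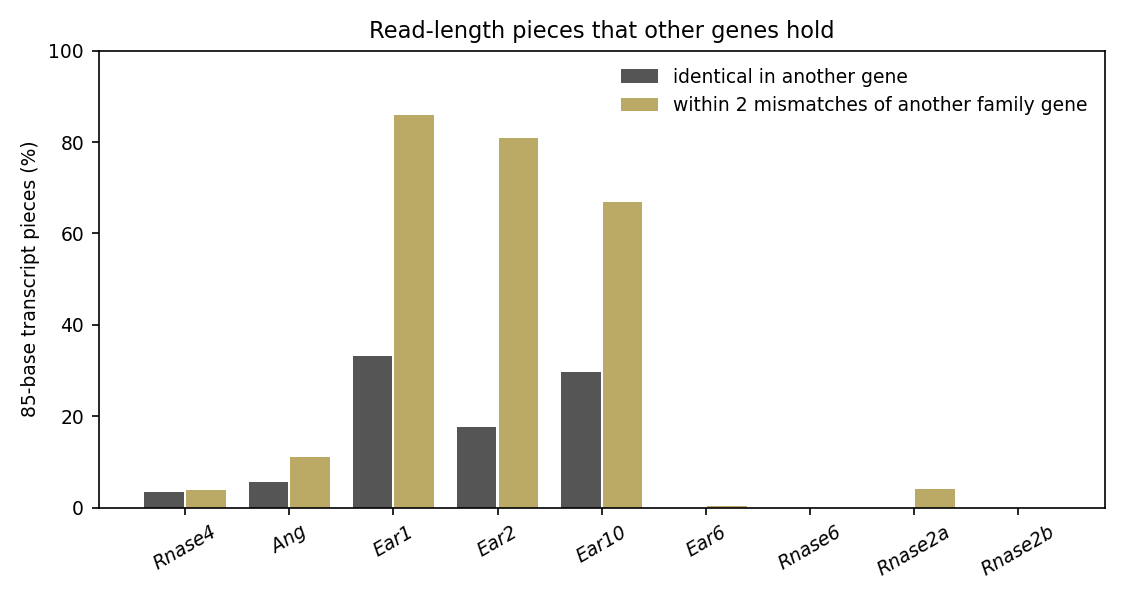
Share (%) of 85-base pieces of each gene's annotated transcripts that are identical to a piece of another gene (dark bars) or within 2 mismatches of another family gene (light bars). Ear1, Ear2 and Ear10 reach 66.8% to 86.0% at 2 mismatches, and Ear6, Rnase6 and Rnase2b stay at or under 0.3%.

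In the wild type macrophages the Ear branch was by far the most abundant part of the family. Levels between genes are compared as CPM per kb of the deposited exon length. Ear2 was at 3831 ± 240 CPM per kb (SD, n = 4), which ranked 7 of 14436 genes tested. Ear1 followed at 627 ± 37.97 CPM per kb (rank 64) and Ear10 at 405 ± 13.9 CPM per kb (rank 127). The deposited length of Ear10, 471 bases, is shorter than the 713 to 716 bases of the other Ear genes. Rnase4 was at 80.9 ± 6.83 CPM per kb (rank 954), Ang at 10.6 ± 2.77 (rank 5936) and Ear6 at 5.14 ± 1.70 (rank 8164). These 6 levels were apart by more than their SDs. Rnase6, an antimicrobial ribonuclease of monocytes and macrophages and not a member, was at 59.2 ± 18.05 CPM per kb, and its SD overlapped that of Rnase4. Rnase2b (10.3 ± 3.23) and Rnase2a (10.0 ± 9.33), relatives of the human eosinophil-derived neurotoxin, could not be told from Ang by their spread.

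In Suz12 cKO libraries the same 3 Ear genes led, at 5575 ± 570 CPM per kb for Ear2 (SD, n = 3, rank 4), 1165 ± 235 for Ear1 (rank 28) and 572 ± 41.6 for Ear10 (rank 73). Rnase4 followed at 33.5 ± 0.594 CPM per kb (rank 2276), next to Rnase6 at 30.3 ± 5.76. Ear6, at 9.40 ± 4.99 CPM per kb, stood above Ang, at 4.34 ± 0.491, which is the reverse of their order in wild type, though their SDs overlapped.

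**Figure D2:**
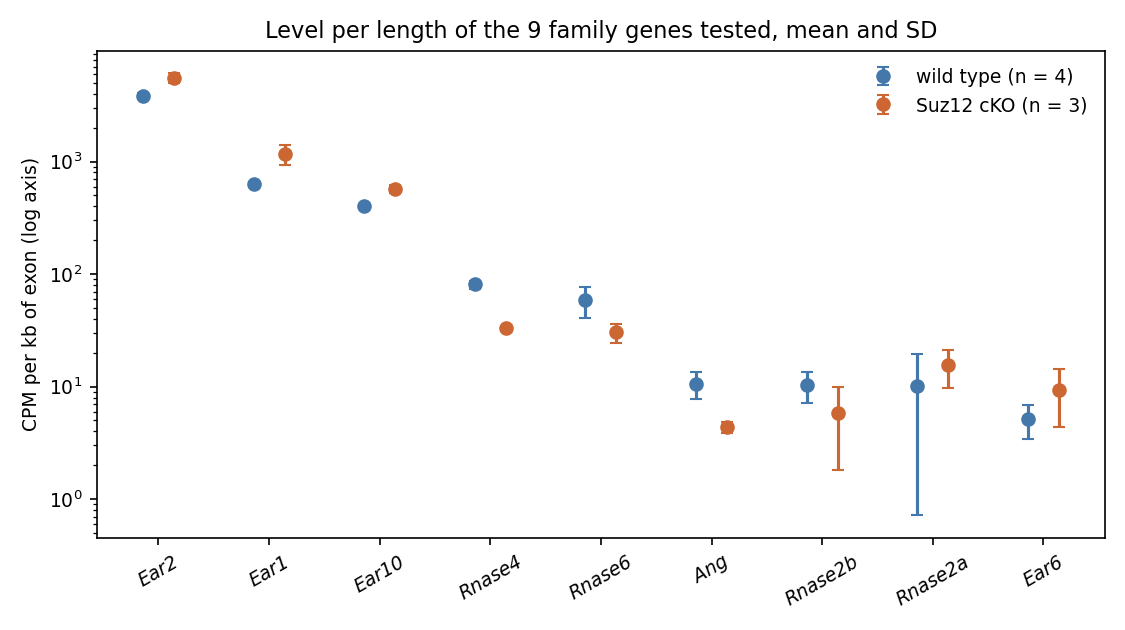
Level per length (CPM per kb of exon, log axis) of the 9 family genes tested, as mean and SD of 4 wild type and 3 Suz12 cKO libraries. Ear2, Ear1 and Ear10 lead in both groups, with Ear2 at 3831 CPM per kb in wild type and 5575 in Suz12 cKO.

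Rnase4, an enzyme that prefers to cut after uridine, was lower in the Suz12 cKO macrophages. It was at 163, 150, 180 and 152 CPM in wild type replicates 1 to 4 and at 66.5, 65.8 and 68.1 CPM in Suz12 cKO replicates 1 to 3. The highest Suz12 cKO library was below the lowest wild type library, and the 3 Suz12 cKO libraries were nearly level, with a coefficient of variation of 1.77% against 8.45% in wild type. The means were 161 ± 13.6 CPM (SD, n = 4) and 66.8 ± 1.19 CPM (n = 3), a log2 fold change of -1.27 (SE 0.10). It was -1.29 among the libraries low in tissue RNA and -1.18 among those high in it.

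Ang, which encodes angiogenin, was lower by about the same factor from a level some steps down. Wild type libraries held 10.7, 10.3, 15.96 and 17.2 CPM and Suz12 cKO libraries 6.09, 5.65 and 4.86 CPM. The groups did not overlap, and wild type replicates 3 and 4 stood above replicates 1 and 2. The means were 13.5 ± 3.54 CPM and 5.53 ± 0.626 CPM, a log2 fold change of -1.29 (SE 0.24). It was -1.60 within the libraries low in tissue RNA and -0.81 within those high in it, and in the latter, as without Suz12 cKO replicate 2 (-1.31), it was not past the threshold. There were 12.5 ± 2.97 Rnase4 counts per Ang count in wild type and 12.2 ± 1.63 in Suz12 cKO libraries, with overlapping ranges. Added together, Rnase4 and Ang went from 175 ± 15.1 to 72.3 ± 0.800 CPM, a log2 ratio of -1.27. Reads of the shared exons may have been left out or counted in both genes, which the sum does not settle.

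Ear2, the most abundant member, was higher in Suz12 cKO macrophages, and the groups did not overlap. Its levels were 2957, 2763, 2714 and 2539 CPM in wild type and 4052, 4366 and 3557 CPM in Suz12 cKO libraries. The means were 2743 ± 172 and 3992 ± 408 CPM, a log2 fold change of 0.54 (SE 0.08). It was 0.36 within the libraries low in tissue RNA, not past the threshold there, and 0.61 within those high in it. Suz12 cKO replicate 3, the sole one low in tissue RNA, was the lowest of its group for Ear2 and for Ear1.

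Ear1 had the larger difference of the abundant Ear genes. Wild type libraries held 456, 481, 422 and 428 CPM and Suz12 cKO libraries 861, 982 and 650 CPM. The ranges were apart, and the spread was wider in Suz12 cKO, with a coefficient of variation of 20.2% against 6.06%. The means were 447 ± 27.1 and 831 ± 168 CPM, a log2 fold change of 0.89 (SE 0.13), with 0.56 within the libraries low in tissue RNA and 0.94 within those high in it. Ear1 held 13.2 ± 0.680% of the counts of Ear1, Ear2 and Ear10 together in wild type and 16.2 ± 1.48% in Suz12 cKO libraries, and these ranges did not overlap.

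Ear10 was at 197, 182, 189 and 195 CPM in wild type and at 256, 292 and 261 CPM in Suz12 cKO libraries. These ranges were apart as well, and wild type libraries were within a coefficient of variation of 3.43%. The means were 191 ± 6.55 and 269 ± 19.6 CPM, a log2 fold change of 0.50 (SE 0.08), with 0.41 within the libraries low in tissue RNA, not past the threshold, and 0.59 within those high in it. Its share of the 3 genes' counts, 5.66% in wild type and 5.32% in Suz12 cKO, overlapped between the groups.

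Ear6, the copy that reads can tell apart best, was scarce, and its groups overlapped. Wild type libraries held 2.71, 5.33, 2.83 and 3.79 CPM, from 166 to 325 counts, and Suz12 cKO libraries 3.36, 6.30 and 10.4 CPM, from 213 to 746 counts. Suz12 cKO replicate 3 was above all other libraries and replicate 1 was within the wild type range. The means were 3.67 ± 1.21 and 6.70 ± 3.56 CPM, a log2 fold change of 0.87 (SE 0.42), and Ear6 was not called. It was 1.73 within the libraries low in tissue RNA, where Suz12 cKO replicate 3 is the sole library of its group, and -0.14 within those high in it, where wild type replicate 2 is.

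**Figure D3:**
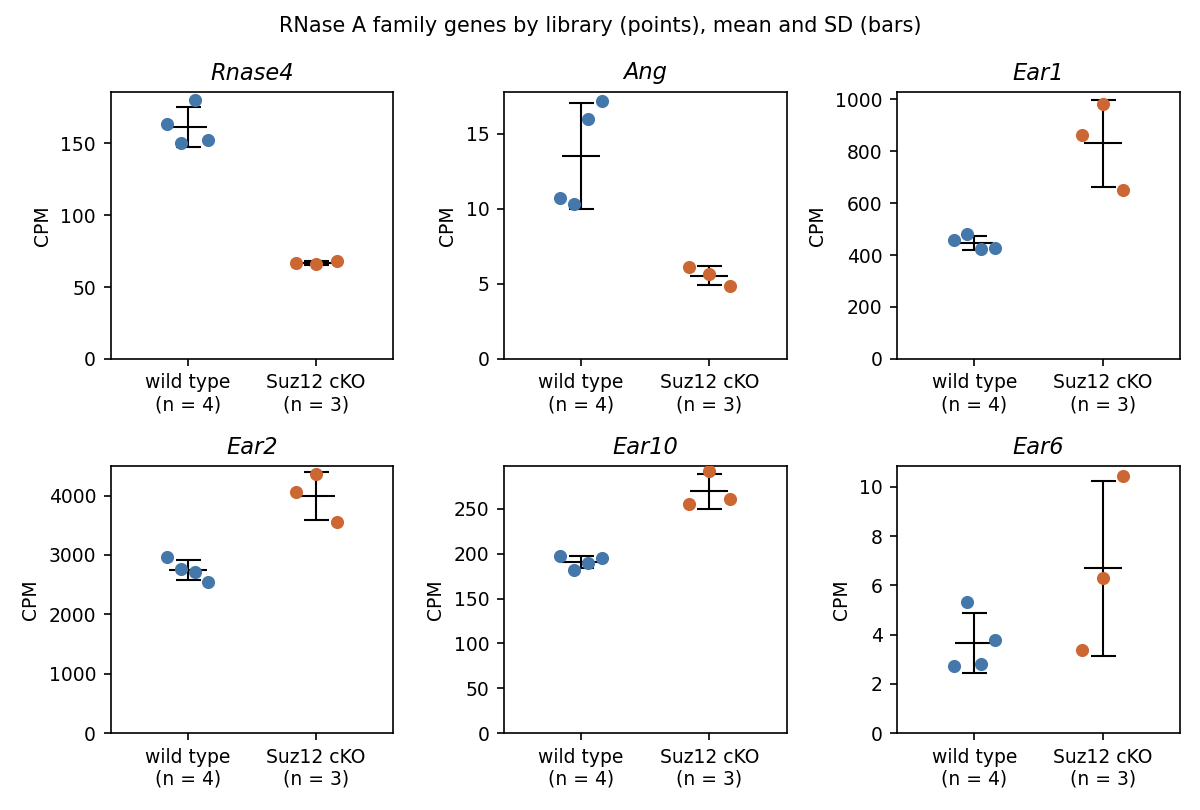
CPM of each member in each library (points), with mean and SD (bars), for 4 wild type and 3 Suz12 cKO libraries; each panel has its own axis from 0. The groups are apart for Rnase4 and Ang (lower in Suz12 cKO) and for Ear1, Ear2 and Ear10 (higher), and overlap for Ear6.

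Over the members, 3 of 6 were called higher, against 6.28% of all genes tested, 2 of 6 lower, against 4.02%, and 1 was not called. The ranges of 5 of the 6 did not overlap between groups, against 25.5% of all genes tested. All 6 passed the filter on low counts. Since the members were chosen with this comparison known, nothing is read from these counts. The counts of all 5 Ear genes together made up 0.337 ± 0.0202% of all counts in wild type and 0.512 ± 0.0571% in Suz12 cKO libraries. In CPM their sum went from 3385 ± 187 to 5099 ± 587, a ratio of 1.51. The sum does not depend on how counted reads were split among these copies, though it does on reads left out or counted more than once. In these bulk samples, a change in the number of cells that carry a transcript and a change in the amount per cell cannot be told apart.

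**Figure D4:**
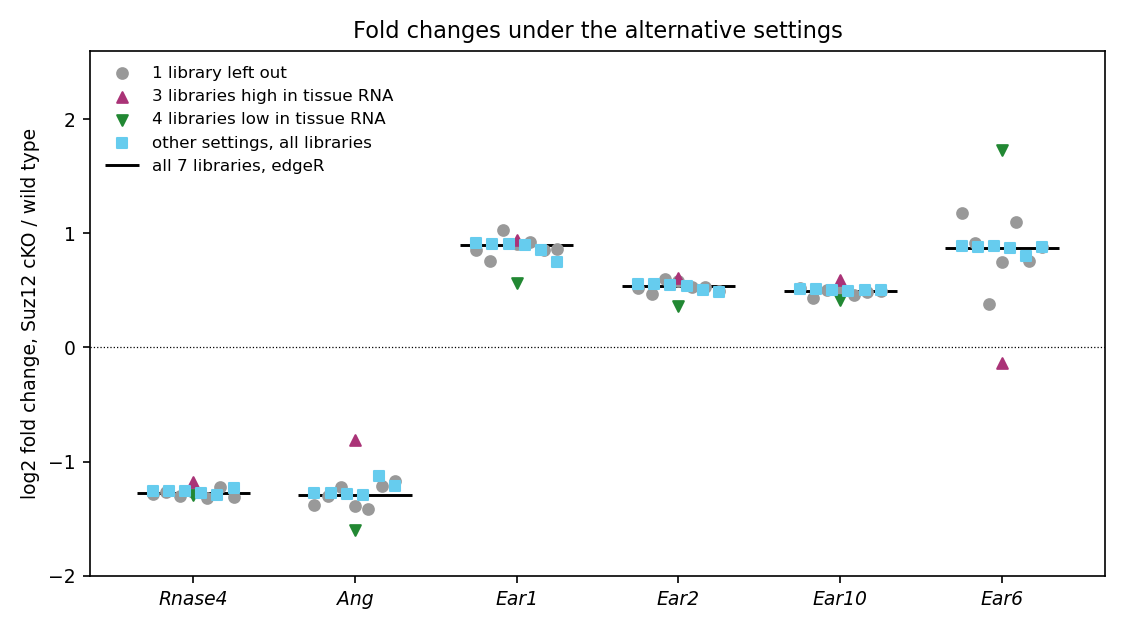
Log2 fold change (Suz12 cKO over wild type) of each member with all 7 libraries (black line) and under 15 alternatives: 7 with 1 library left out, the libraries high and low in tissue RNA alone, and other settings with all libraries. Rnase4 stays between -1.32 and -1.18 and Ear1 between 0.56 and 1.03, while Ear6 runs from -0.14 to 1.73.

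Eosinophils carry Ear transcripts, so their other genes were looked up in the same libraries. Prg2 (major basic protein), Epx (eosinophil peroxidase) and Gata1 had 0 counts in all 7 libraries, and a count of 0 allows up to 0.0378 to 0.0624 CPM per library (3 counts, counting error only). Of the 10 listed eosinophil markers, 3 were tested (Siglecf, Alox15 and Il1rl1) and 0 were called by edgeR, with 1 higher and 1 lower at an unadjusted p under 0.05 and 1 lower with DESeq2. Without Siglecf, which alveolar macrophages also carry, the list summed to 0.341 to 4.89 CPM in wild type and 4.16 to 12.1 CPM in Suz12 cKO libraries. In Suz12 cKO libraries most of the sum was Alox15 (2.69 to 9.75 CPM, against 0 to 0.498 CPM in wild type), and in wild type replicate 2 most was Il1rl1 (4.18 of 4.89 CPM). Of the 9 neutrophil markers listed, 5 were tested and 4 of them were called higher, against 6.28% of all genes tested. Those called were S100a8, Retnlg, Cxcr2 and Csf3r. The list summed to 56.4 to 67.0 CPM in wild type and 118 to 175 CPM in Suz12 cKO libraries, with Ly6g and Camp at 0 counts throughout. Most of that sum was Csf3r (means of 41.1 CPM in wild type and 62.3 CPM in Suz12 cKO) and S100a8 (14.9 and 57.9 CPM). S100a9 and Elane were at 0 in 4 libraries each and Mpo in 6. Lung epithelial and endothelial markers summed to 15.9 to 103 CPM in wild type and 21.1 to 81.9 CPM in Suz12 cKO libraries, and 0 of 11 were called by edgeR, by DESeq2 or at an unadjusted p under 0.05. Among the alveolar macrophage markers, 5 of 12 were called higher (Itgax, Fabp4, Krt79, Mrc1 and Marco) and 1 lower (Plet1), against 6.28% and 4.02% of all genes tested. The part of these other cells in the members' values was not tested.

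In the rest of the family only 3 genes could be tested. Of 20 family genes in the table, 14 are not members, 9 of these had no count in any library, and 3 passed the filter. By edgeR 1 of the 3 was called lower and 0 higher, against 4.02% and 6.28% of all genes tested. The counts were the same by DESeq2 and at an unadjusted p under 0.05. Rnase6 was lower, at 56.1, 39.8, 75.1 and 82.8 CPM in wild type and 30.2, 39.5 and 27.8 CPM in Suz12 cKO libraries, with wild type replicate 2 just above Suz12 cKO replicate 2. The difference on the log2 scale was -0.97 (SE 0.25, edgeR adjusted p = 0.0402, 0.00087 to 0.657 over the alternatives). It lost its call when any library but wild type replicate 2 was left out (-1.13 to -0.82). It was -1.38 and called within the libraries low in tissue RNA, and -0.19 and not called within those high in it. Rnase2a was at 4.32, 16.6, 3.05 and 3.81 CPM in wild type and 7.91, 8.98 and 15.2 CPM in Suz12 cKO libraries, a log2 fold change of 0.62 (SE 0.58, edgeR adjusted p = 0.583, 0.0119 to 0.876 over the alternatives). Wild type replicate 2 stood far above its group, and without it the value was 1.51 and called. It was 2.01 within the libraries low in tissue RNA and -0.97 within those high in it. Rnase2b, with a log2 fold change of -0.82 (SE 0.50, edgeR adjusted p = 0.374), overlapped between groups, with -0.24 and -0.72 in the low and high sets. Rnase12 had 13 and 12 counts in wild type replicates 1 and 2 and 0 elsewhere, and Ear14 had 0 to 4 counts per library.

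The proteins that meet these enzymes in the cell were listed as well. Plxnb2, a plexin that serves as a receptor for angiogenin, rose from 172 ± 26.5 to 294 ± 17.0 CPM, a log2 fold change of 0.77 (SE 0.13, edgeR adjusted p = 0.00712), and was called in all 15 alternatives, with 0.73 in the libraries low and 1.08 in those high in tissue RNA. Rnh1, the cytosolic inhibitor that binds RNase A family enzymes, was at 610 ± 29.2 CPM in wild type and 484 ± 51.5 CPM in Suz12 cKO libraries, a log2 fold change of -0.33 (SE 0.09). It missed the threshold (edgeR adjusted p = 0.0537, 0.00695 to 0.329 over the alternatives), and was past it without Suz12 cKO replicate 3 (-0.44), without wild type replicate 2 (-0.37) and with DESeq2. It was -0.21 and -0.36 in the low and high sets. Nsun2 and Trdmt1, methyltransferases whose marks guard transfer RNAs from angiogenin, had log2 fold changes of -0.11 and -0.32 and were not called (edgeR adjusted p = 0.594 and 0.28). By edgeR the list of 4 had 1 gene higher and 0 lower, against 6.28% and 4.02% of all genes tested. It had 1 gene lower at an unadjusted p under 0.05, and a median log2 fold change of -0.22, beside 0.00 over all genes tested.

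Among 21 tested genes for other RNA-degrading enzymes, edgeR called 0 higher and 1 lower, against 6.28% and 4.02% of all genes tested. There were 2 higher and 4 lower at an unadjusted p under 0.05 and 1 higher and 3 lower by DESeq2. The median log2 fold change was -0.04. The gene called was Rnaseh2a, the catalytic subunit of RNase H2, which fell from 32.4 ± 3.24 to 20.1 ± 2.96 CPM (-0.68, SE 0.14, edgeR adjusted p = 0.0171, 0.00098 to 0.184 over the alternatives). That call was lost without Suz12 cKO replicate 1 or 2 or wild type replicate 1 or 3, and in both tissue RNA sets (-0.48 in the low and -0.79 in the high). Its partner subunit Rnaseh2b had -0.46 (edgeR adjusted p = 0.0515). The endolysosomal nucleases Pld3 and Pld4 had -0.24 and 0.38 (edgeR adjusted p = 0.0649 and 0.0764). Among 10 genes of endosomal RNA sensing, edgeR and DESeq2 each called 0 higher and 1 lower, beside the same edgeR shares of all genes tested. At an unadjusted p under 0.05 there were 0 higher and 2 lower, and the median was -0.14. Tlr7, the receptor for single-stranded RNA, fell from 172 ± 23.8 to 120 ± 7.38 CPM (-0.52, SE 0.12, edgeR adjusted p = 0.0279, 0.00085 to 0.232 over the alternatives), and its call was lost when any Suz12 cKO library or wild type replicate 3 or 4 was left out, and in both tissue RNA sets (-0.69 in the low and -0.31 in the high). Slc15a4, Myd88 and Unc93b1, which serve the same receptors, had values of -0.21, -0.22 and -0.18 and were not called (edgeR adjusted p = 0.199, 0.252 and 0.272).

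Rnase4 and Ang sit among other genes on chromosome 14, and the window of 200 kb around them holds 20 genes of the table, themselves included. Of these, 9 tested genes are not members, and 3 of the 9 were called lower and 0 higher by edgeR and by DESeq2, against 4.02% and 6.28% of all genes tested by edgeR. At an unadjusted p under 0.05 there were 5 lower and 0 higher. Besides Rnase6, whose start lies 32.83 kb downstream, they were Pnp and Pnp2, which encode purine nucleoside phosphorylases. Pnp (50944303 to 50953412) fell from 191 ± 35.7 to 113 ± 6.41 CPM (-0.75, SE 0.15, edgeR adjusted p = 0.0142, 1.6e-05 to 0.0966 over the alternatives), and lost its call without Suz12 cKO replicate 1 or 2 and in both tissue RNA sets (-0.83 in the low and -0.47 in the high). Pnp2 (50956141 to 50964751) fell from 63.2 ± 10.5 to 33.7 ± 1.42 CPM (-0.91, SE 0.14, edgeR adjusted p = 0.00484). It was -0.94 in the low set, and -0.63 and not called in the high set. As near copies, Pnp and Pnp2 may share reads. Klhl33, Osgep, Apex1 and Pip4p1, further out on the same side, had log2 fold changes of -0.39, -0.33, -0.42 and -0.02 and were not called. That of Pip4p1 changed sign with the setting. The genes between Pnp2 and Rnase4 that are in the table had no count in any library, other than the counts of Rnase12 given above.

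**Figure D5:**
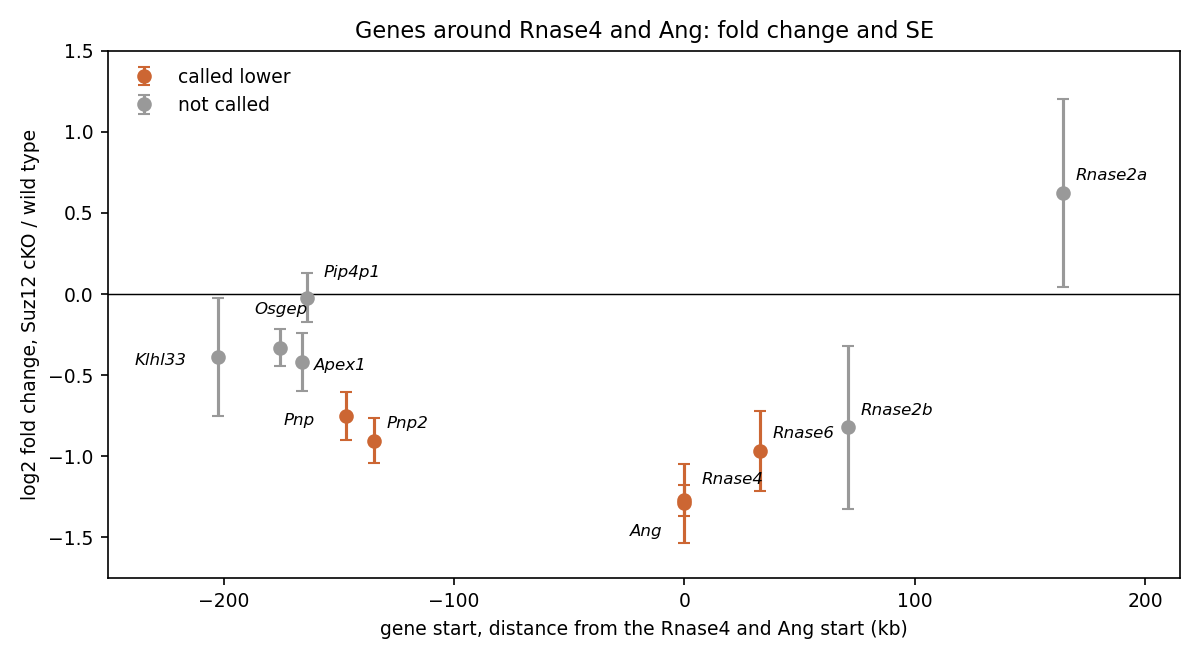
Log2 fold change (Suz12 cKO over wild type) with SE of the 11 tested genes within 200 kb of Rnase4 and Ang, by distance of the gene start (kb) from theirs. Rnase4, Ang, Rnase6, Pnp and Pnp2 were called lower, and Rnase2a is the sole point above 0, with an SE of 0.58.

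Across the 7 libraries, the log2 CPM of members that differed the same way ran together, and these correlations describe 7 points that share the genotype split. Pearson's r was 0.982 between Ear1 and Ear2, 0.940 between Ear1 and Ear10 and 0.950 between Ear2 and Ear10, pairs that may share reads. After each genotype's mean was taken out, r was 0.861, 0.439 and 0.494. Between Rnase4 and Ang it was 0.925, and 0.256 after centring. Between Ang and Rnase6 it was 0.938, and 0.854 after centring.

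The genes whose levels followed each member most closely differed between members. They were picked for their correlation with the member over these 7 libraries, so a like order of libraries follows from that choice. Those closest to Rnase4 were Tmem154, Top2a (a topoisomerase of dividing cells) and Tm6sf1, with r of 0.997, 0.997 and 0.995, and 0.889, 0.818 and 0.802 after centring. Top2a went from 82.2 ± 4.31 to 25.9 ± 1.27 CPM. Closest to Ang were Ciita (the master activator of MHC class II genes), the transcription factor Myc and H2-DMb1 (an MHC class II chaperone), with r of 0.991, 0.988 and 0.985, and 0.943, 0.988 and 0.926 after centring. Ciita was at 92.1, 94.1, 159 and 143 CPM in wild type libraries, low in the same replicates 1 and 2 as Ang. Closest to Ear1 were Fabp1 (a fatty acid binding protein), Cdc42bpg and Sik3, with r of 0.990, 0.988 and 0.984, and 0.935, 0.907 and 0.962 after centring. Fabp1 went from 44.2 ± 5.29 to 137 ± 56.2 CPM and, as Ear1, was lowest in replicate 3 of the Suz12 cKO libraries. Ear2 was closest to Ube2e3, Zfp532 and Plcb1, with r of 0.985, 0.985 and 0.983, and 0.951, 0.893 and 0.859 after centring. Ear10 was closest to Pml, Lmtk2 and C1ra, with r of 0.984, 0.983 and 0.983, falling to 0.732, 0.695 and 0.862 after centring. Ear6 was closest to Plekho1, Pla2g7 and Ncoa7, with r of 0.981, 0.971 and 0.969, and 0.973, 0.958 and 0.958 after centring. Pla2g7, a secreted phospholipase, was at 6.55, 18.5 and 34.8 CPM in Suz12 cKO replicates 1 to 3, the same order as Ear6.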

How the data were processed

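The authors deposited raw gene counts, made with featureCounts on mm10, per the submitters' processing notes. Versions, the strand setting and the handling of reads that match several places were not given in these sources. Library totals exceed the read numbers in the design text, and no source explains why. The design text calls the libraries of a group biological replicates. Symbols and positions came from RefSeq (GRCm38.p6) by Entrez number, with 25275 of 27179 genes matched. The test was edgeR 4.0.16's quasi-likelihood test (R 4.3.3) on all 7 libraries, with TMM factors, genotype as the sole term and filterByExpr (at least 10 counts, 15 in total). The 14436 genes kept held 99.98% of all counts. Benjamini-Hochberg adjustment ran over all 14436, with calls made below an adjusted p of 0.05. The SE is the size of the log2 fold change divided by the square root of F. The fit was tested on simulated counts.

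Promoter windows came from RefSeq and transcripts and exons from GENCODE M21; sequences were aligned with Biopython 1.88. Replicates correlated across genes with r from 0.916 to 0.969. The members, lists, the tissue RNA split and the rule for named genes were chosen with earlier results of these data known. Named genes were the members, other tested family genes, Rnh1, Plxnb2, Nsun2, Trdmt1, up to 4 genes of the smallest p in each further list, tested genes within 200 kb of Rnase4 or Ang, Suz12, and the 3 genes most correlated with each member among genes of at least 10 CPM, without predicted symbols (log2 CPM, prior count 2). Alternatives were DESeq2 1.42.0, other size factors, no filter, each library left out, a replicate block, and a term for or a split by tissue RNA. The prior count in the correlations was also set to 0.5. Protein sequences were not used here.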

Additional observations from a re-analysis of the deposited data

Results flagged for a closer look

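Of 58 wild type values of named genes and marker sums examined, 5 had 1 library far from the other 3, by Dixon's ratio at its 95% critical value; chance gives about 1 in 20. Rnase2a was at 16.6 CPM in wild type replicate 2, while the other 3 lay between 3.05 and 4.32 CPM. The same library held 103 CPM of summed lung epithelial and endothelial markers and 57.9 CPM of haemoglobin transcripts after TMM scaling, above the other wild type libraries. Whether the Rnase2a transcripts of that library came with these other transcripts was not tested. Rnaseh2b was at 35.8 CPM in wild type replicate 1, and C1ra was at 49.96 CPM in wild type replicate 4.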

How the results depend on the processing

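Rnase4 and Ear1 kept their direction in all 15 alternatives, from -1.32 to -1.18 and from 0.56 to 1.03. With DESeq2, other size factors and no filter, all members kept their direction and their side of the threshold. The alternatives reuse the same 7 libraries, and the members were chosen with this comparison known. They therefore describe the processing and add no support for a difference. DESeq2 called 1457 genes higher. It called 1 tRNA guard and inhibitor gene lower, and 1 other RNA-degrading enzyme higher and 3 lower.

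With 1 library left out, genes called numbered 447 to 1515 higher and 268 to 885 lower; both highest counts were without wild type replicate 2 and both lowest without Suz12 cKO replicate 2. Ang ranged from -1.41 to -1.17, Ear2 from 0.47 to 0.60, Ear10 from 0.43 to 0.52 and Ear6 from 0.38 to 1.18. Other family genes called were 0 to 1 in each direction, guards lower 0 to 1, RNA-degrading enzymes 0 to 1 higher and 0 to 2 lower, RNA sensing genes lower 0 to 1, and genes within 200 kb 0 to 1 higher and 1 to 3 lower. Rnase2a and Rnase6 are family genes that also lie within 200 kb, so each enters both of those counts. Rnase2a ranged from 0.27 to 1.51, Rnase6 from -1.15 to -0.82 and Pip4p1 from -0.14 to 0.052.

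Within the 4 libraries low in tissue RNA, 367 genes were called lower, with 1 other family gene and 1 gene within 200 kb higher, and 0 RNA-degrading enzymes and 0 RNA sensing genes lower. The other family gene and the gene within 200 kb that were higher are the same gene, Rnase2a. Ear2 was 0.36, Ear10 0.41, Ear6 1.73, Rnase2a 2.01 and Pip4p1 0.049. Within the 3 libraries high in tissue RNA, 328 genes were called lower, with 1 RNA-degrading enzyme higher and 0 genes lower among other family genes, RNA-degrading enzymes, RNA sensing genes and genes within 200 kb. There Ang was -0.81, Ear6 -0.14, Rnase2a -0.97, Rnase6 -0.19 and Pip4p1 0.20. These splits hold fewer samples, and a group of 1 library is assumed to vary like the other. With a term for tissue RNA, 0 other family genes were called lower, Rnase6 was -0.80 and Pip4p1 0.13. The cause of these changes was not tested.

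Replicate numbers are shared by the groups, but deviations of same-numbered libraries correlated at -0.04, 0.24 and 0.16, so the numbers were not taken to pair them. With a replicate block, 585 genes were called higher and 278 lower, with 0 other family genes and 0 RNA sensing genes lower. Under the block Ang was -1.13 and Ear10 0.51, neither past the threshold, Rnase6 was -0.78 and Pip4p1 0.069. Of calls, 61.0% were higher, against 64.0% with RLE factors. Ear6 rests on 166 to 746 counts per library, and its coefficients of variation between libraries were 33.1% in wild type and 53.1% in Suz12 cKO.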
